A study of Drosophila ananassae with 54 samples.

Results

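The response of the hindgut to cold acclimation was described here in FastBKK, a line of the fruit fly Drosophila ananassae from Bangkok that the labels call cold-tolerant. Its members were all 6 RNA-seq libraries of FastBKK hindgut, of 54 libraries in the series: 3 from cold-acclimated flies and 3 from control flies, numbered 1, 3 and 4 in both groups. Cold-acclimated adult males were held at 10 °C for 4 days, starting 1 day after they eclosed, and were then given 90 min of recovery. Control males of the same line were held at the rearing temperature of 22 °C for 4 days, with no recovery step listed, so the effects of the cold and of the recovery cannot be told apart. Each library came from hindguts of 60 individuals. FastBKK was a pool of 4 isofemale lines, all flies were kept on corn-molasses medium, and no group carried a transgene or mutation in the labels. The labels do not say whether the replicates were separate cultures, so the p-values measure only the spread between these libraries. Hindguts of 2 other lines, treated alike, were used for comparison: SlowBKK, from Bangkok and labelled cold-sensitive (a pool of 4 isofemale lines), and KATH, from Kathmandu and labelled cold-tolerant (a pool of 3 isofemale lines), with 6 libraries each.

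The insect hindgut, with its rectum, is the last part of the excretory system. The Malpighian tubules secrete a primary urine, and the hindgut epithelium takes back water, ions and metabolites from it before excretion. In chill-susceptible insects, cold slows active ion transport, potassium leaks into the haemolymph, and flies fall into chill coma. Cold acclimation is known to improve the ability of insects to keep this balance, and the study asked how lines of differing cold tolerance respond in these ionoregulatory tissues. The deposited table names genes by annotation symbol and FlyBase identifier only. None of these identifiers matched the reference gene table used here (0 matches), so genes are given by symbol, scaffold and length, with no function.

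The 6 libraries held between 32.06 and 35.11 M counts assigned to genes. Control replicate 3 stood apart. Over 795 body-restricted genes, which averaged at least 50 CPM (counts scaled to library size) over the body libraries of the series but had medians under 1 CPM in dissected hindgut and tubule, its median level was 5.31% of the body level, against 0.0353% and 0.00766% in control replicates 1 and 4. The cold libraries were at 0.0379%, 0.0242% and 0.102% by the same measure. Its log2 CPM values correlated with those of the other control libraries at 0.924 and 0.928 across genes, while those 2 correlated at 0.98 and the cold libraries at 0.982 to 0.987. The main counts are therefore also given without it. Of the 28 genes named below for the size or amount of their change, 2 (GF10297 and GF13453) had a fold that moved by more than 1.5 times when it was left out, and the others moved by at most 1.29 times. No named marker of another tissue could be checked, because the identifiers carry no gene names.

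Cold changed a large share of the measurable hindgut transcriptome, in both directions. Of 11323 genes tested, 5292 (46.7%) were called at an adjusted p under 0.05 (edgeR quasi-likelihood test with Benjamini-Hochberg adjustment), with 2676 genes (23.6%) higher and 2616 (23.1%) lower in the cold. Without control replicate 3, 5191 of 11445 genes (45.4%) were called, 2681 (23.4%) higher and 2510 (21.9%) lower, and 4518 genes were called with the same sign both ways. Most changes were moderate: the median size of the log2 fold change was 0.78 among the genes that rose and 0.77 among those that fell. The median over all tested genes was 0.00322.

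Large changes depended on the library that carries body transcripts. With all 6 libraries, 366 genes were over 4-fold higher and 382 over 4-fold lower in the cold, and 50 were over 32-fold higher and 82 over 32-fold lower. Without control replicate 3 the numbers were 500 higher and 205 lower at over 4-fold, and 86 higher and 4 lower at over 32-fold. Without control replicate 1 or 4, where replicate 3 weighs more, 749 and 772 genes were over 4-fold lower. Of the body-restricted genes 326 were tested, 141 of them (43.3%) were called lower, 136 by over 4-fold, and 136 of those calls were lost without control replicate 3. Then 5 were called lower, against 419 and 427 without control replicate 1 or 4. The fits without replicate 1 or 4 passed a different set of genes, 11781 and 11784 in all, and so tested more body-restricted genes than 326. The median log2 fold change of the 326 was -3.0 with control replicate 3 and 0.89 without it. The genes named next were required to be called with the same sign both ways, to average at least 10 CPM over the 6 libraries and to have cold and control libraries that do not overlap. Cold and control libraries did not overlap in 5794 of all tested genes (51.2%), and 3194 genes met every condition, 1537 of them higher and 1657 lower.

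**Figure D1:**
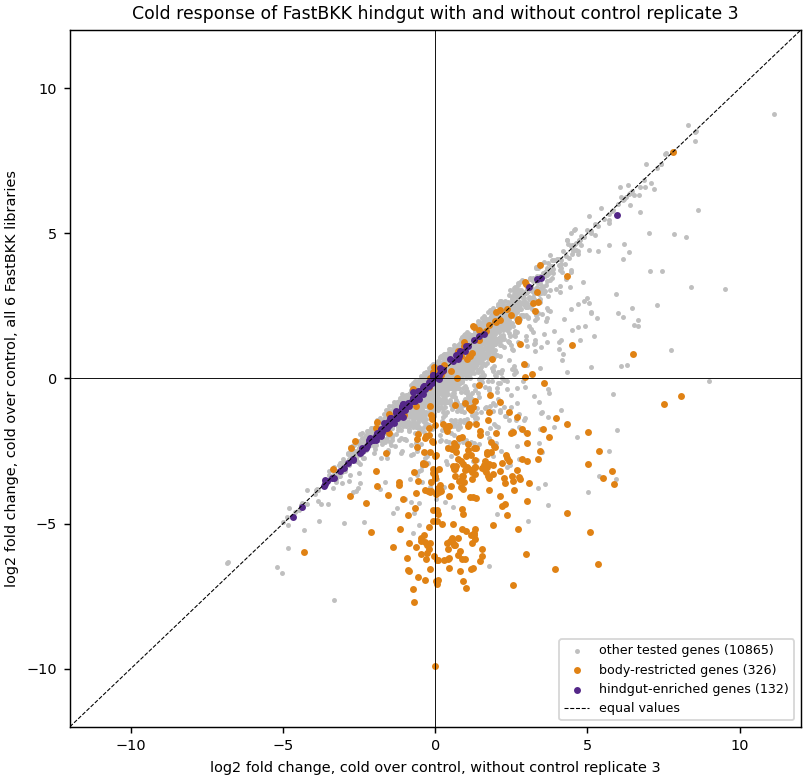
Log2 fold change, cold over control, of each of 11323 tested genes in FastBKK hindgut, fitted without control replicate 3 (x axis) and with all 6 libraries (y axis). Body-restricted genes (orange) lie far below the line of equal values, with a median of -3.0 on the y axis and 0.89 on the x axis, while the 132 hindgut-enriched genes (purple) follow it.

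Genes that were nearly silent in control hindguts were well expressed after the cold. GF17799 (FBgn0094817, scaffold 13340, 743 bases) had 240.6, 190.1 and 246.7 CPM in cold libraries, against 0.476, 0.747 and 1.90 CPM in control libraries. GF17187 (FBgn0094205, scaffold 13340, 817 bases) had 514.9, 449.2 and 522.1 CPM in the cold and 2.52, 6.18 and 6.76 CPM in control. In both genes every cold library stood far above every control library, and the 3 cold libraries lay close together. Their fitted log2 fold changes were 7.74 ± 0.43 (SE; edgeR adjusted p = 1.62e-08), or 213.7-fold, for GF17799 and 6.59 ± 0.51 (edgeR adjusted p = 1.91e-07), or 96.0-fold, for GF17187.

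Among the genes that met every condition for naming, GF19898 (FBgn0096905, scaffold 13340, 352 bases) had the highest fold change and was uneven among the cold libraries. It had 2.23, 41.9 and 23.6 CPM in cold replicates 1, 3 and 4, against 0.136, 0.0679 and 0.0934 CPM in control, a fitted log2 change of 7.78 ± 1.18 (edgeR adjusted p = 7.93e-05). GF11192 (FBgn0088232, scaffold 13266, 1445 bases) had 12.2, 31.8 and 19.7 CPM in the cold and 0.102, 0.102 and 0.405 CPM in control, a fitted log2 change of 6.66 ± 0.78 (edgeR adjusted p = 7.41e-06). In both, cold replicate 1 was the lowest cold library and cold replicate 3 the highest, yet the groups did not overlap. GF10917 (FBgn0087957, scaffold 13337, 589 bases) was even by comparison, with 77.8, 80.1 and 75.3 CPM in the cold and 0.952, 1.26 and 0.716 CPM in control, a fitted log2 change of 6.32 ± 0.51 (edgeR adjusted p = 2.44e-07). GF10297 (FBgn0087338, scaffold 13337, 628 bases) had 71.2, 36.9 and 28.8 CPM in the cold and 0.408, 0.848 and 0.218 CPM in control, a fitted log2 change of 6.54 ± 0.61 (edgeR adjusted p = 1.05e-06) that was 7.19 without control replicate 3. The other 4 of the 10 highest, GF22955, GF10299, GF21446 and GF16160, had log2 fold changes of 5.36 to 5.65, with cold means of 78.4 to 335 CPM and control means of 1.63 to 6.75 CPM. Among these 10 genes, 1 (GF10299) belonged to the hindgut-enriched class described further on.

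The strongest falls included genes that were among the abundant transcripts of control hindguts. GF21371 (FBgn0098373, scaffold 13117, 916 bases) had 262.5, 149.8 and 156.9 CPM in cold libraries, against 5527, 5845 and 4207 CPM in control libraries. GF22327 (FBgn0099325, scaffold 13248, 1616 bases) had 199.8, 294.6 and 226.8 CPM in the cold and 3369, 3354 and 2649 CPM in control. GF11734 (FBgn0088774, scaffold 13266, 2026 bases) had 108.2, 28.9 and 44.0 CPM in the cold and 1166, 1165 and 1371 CPM in control. All 3 genes lost most of their transcript in every cold library, with control replicate 3 inside or near the range of the other control libraries. The log2 fold changes were -4.78 ± 0.23 for GF21371, -3.70 ± 0.18 for GF22327 and -4.35 ± 0.45 for GF11734 (edgeR adjusted p of 3.82e-09, 3.82e-09 and 2.25e-06), or 27.4-fold, 13.0-fold and 20.4-fold lower.

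Other genes fell by as much from lower levels. GF13453 (FBgn0090485, scaffold 13266, 565 bases) had the lowest fold change among the genes that met every condition for naming. Its levels were 1.26, 0.312 and 0.526 CPM in the cold and 8.78, 50.1 and 18.8 CPM in control. Here control replicate 3 was the highest library. The log2 fold change was -5.21 ± 1.23 (edgeR adjusted p = 0.00297), and -4.30 (edgeR adjusted p = 0.0100) without that library. GF13211 (FBgn0090244, scaffold 13266, 851 bases) had 1.61, 0.391 and 0.576 CPM in the cold and 25.4, 36.7 and 24.0 CPM in control, a fitted log2 change of -5.06 ± 0.51 (edgeR adjusted p = 2.00e-06) that was -4.85 without control replicate 3. GF10690 (FBgn0087731, scaffold 13337, 831 bases) was among the most even, with 6.55, 5.65 and 6.81 CPM in the cold and 88.9, 92.4 and 92.4 CPM in control, a fitted log2 change of -3.85 ± 0.16 (edgeR adjusted p = 2.84e-09). The other 4 of the 10 lowest, GF23617, GF28112, GF23660 and GF27507, had log2 fold changes of -4.44 to -3.56. Of these 10 genes, 4 (GF21371, GF23617, GF22327 and GF23660) were hindgut-enriched.

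**Figure D2:**
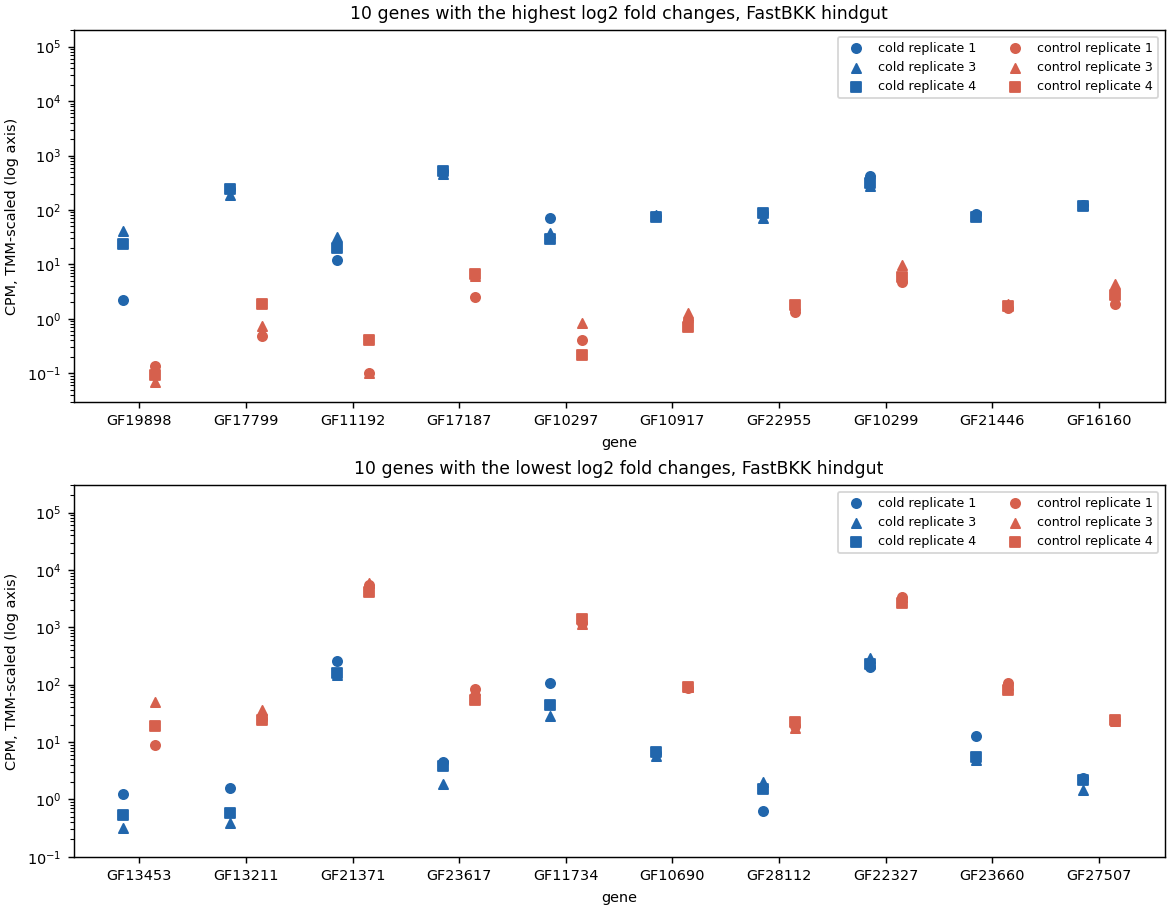
Level of the 10 genes with the highest (top) and the 10 with the lowest (bottom) log2 fold changes, among genes that met every condition for naming. Each of the 6 FastBKK hindgut libraries is shown, in TMM-scaled CPM on a log axis, with cold libraries in blue and control libraries in red. In every gene shown the cold and control libraries do not overlap; cold replicate 1 of GF19898, at 2.23 CPM, is the cold library of the upper plot nearest to its controls.

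Measured by the amount of transcript gained or lost, the largest rises were in a pair of genes with neighbouring symbols and in 2 genes that were already abundant. GF14586 (FBgn0091613, scaffold 12916, 864 bases) had 2678, 2814 and 2667 CPM in the cold and 154.8, 227.3 and 221.7 CPM in control, a fitted log2 change of 3.76 ± 0.30 (edgeR adjusted p = 2.58e-07). GF14585 (FBgn0091612, scaffold 12916, 814 bases) had 2021, 2060 and 2095 CPM in the cold and 92.6, 151.7 and 102.3 CPM in control, a fitted log2 change of 4.16 ± 0.30 (edgeR adjusted p = 1.18e-07). These were 13.5-fold and 17.8-fold higher in the cold, with no overlap between the groups. GF17649 (FBgn0094667, scaffold 13340, 1770 bases) averaged 4108 ± 290.5 CPM in the cold and 1605 ± 75 CPM in control (SD, n = 3 each), 2.56-fold higher. GF16196 (FBgn0093218, scaffold 13340, 2381 bases) averaged 8602 ± 893 CPM in the cold and 6359 ± 485 CPM in control, 1.35-fold higher (edgeR adjusted p = 0.00127).

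The largest loss was in a single gene that dominated the control libraries. GF11506 (FBgn0088546, scaffold 13266, 1260 bases) had 11120, 12260 and 9914 CPM in cold libraries, against 72700, 76190 and 49910 CPM in control libraries. In level per length it averaged 8808 RPKM (CPM divided by gene length in kilobases) in the cold and 52590 RPKM in control. Its log2 fold change was -2.58 ± 0.17 (edgeR adjusted p = 6.86e-08), 5.97-fold lower, and -2.47 without control replicate 3. GF27724 (FBgn0274947, scaffold 13266, 347 bases) averaged 4516 ± 922 CPM in the cold and 14790 ± 2812 CPM in control, a fitted log2 change of -1.71 ± 0.17 (edgeR adjusted p = 1.39e-06). GF27217 (FBgn0274440, scaffold 13266, 320 bases) averaged 2492 ± 312 CPM in the cold and 10830 ± 2070 CPM in control, a fitted log2 change of -2.12 ± 0.15 (edgeR adjusted p = 8.71e-08). GF23817 (FBgn0100811, scaffold 13337, 1664 bases) averaged 5751 ± 443 CPM in the cold and 12030 ± 534 CPM in control, a fitted log2 change of -1.06 ± 0.15 (edgeR adjusted p = 3.27e-05). In cold libraries the 10 most abundant genes of each took 8.08%, 8.45% and 7.77% of the raw counts. In control libraries they took 14.7%, 15.8% and 12.5%.

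These 4 genes all belonged to the genes that mark the hindgut by level, and that class as a whole fell. Hindgut-enriched genes were taken from the control libraries of SlowBKK and KATH alone, as genes with at least 10 CPM in hindgut and at least 8-fold more there than in both tubule and body. Of 132 such genes tested, 84 (63.6%) were lower and 19 (14.4%) higher in cold FastBKK hindguts, against 23.1% lower and 23.6% higher over all genes. Their median log2 fold change was -1.11, against 0.00322 over all genes, and without control replicate 3 the count was 85 lower and 17 higher with a median of -1.10. In cold libraries the class summed to 7.05%, 7.47% and 6.64% of TMM-scaled counts. In control libraries it summed to 21.5%, 22.8% and 18.1%, so the groups were far apart. These sums weigh the most abundant genes, such as GF11506, most. The median level of the class was closer between the groups, at 150, 129 and 126 CPM in cold libraries and 224, 202 and 193 CPM in control libraries. No gene of the class was at 0 in any library. In bulk tissue, fewer cells of a type and less RNA per cell cannot be told apart. The choice of the class from control libraries favours genes that are high without cold: with the class taken from the cold libraries of the same 2 lines, 67 of 128 genes (52.3%) were lower and 37 (28.9%) higher in FastBKK, with a median of -0.66.

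The fall reached the most abundant hindgut-enriched genes. Of the 20 with the highest level per length in control SlowBKK and KATH, 18 were called lower in cold FastBKK (edgeR quasi-likelihood test). The other 2 (GF12892 and GF13163) were not called, and all 20 fitted values were below 0. Like the class, this ranking used control libraries, which favours genes that are high without cold, and no ranking by cold level was made. GF12892 (FBgn0089926) had 6402, 8246 and 6701 CPM in the cold and 9148, 9394 and 9005 CPM in control, with an edgeR adjusted p of 0.101. Among those called, log2 fold changes ran between -0.70 ± 0.13 for GF14655 and -4.78 ± 0.23 for GF21371. GF27222 averaged 141.1 CPM in the cold and 1507 CPM in control, 10.7-fold lower. GF17049 averaged 658.9 CPM in the cold and 5954 CPM in control, 9.04-fold lower.

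A smaller set of hindgut-enriched genes rose. The highest was GF10299 (FBgn0087340, scaffold 13337, 912 bases), with 414.4, 275.9 and 315.2 CPM in the cold and 4.69, 9.57 and 5.98 CPM in control, a fitted log2 change of 5.63 ± 0.34 (edgeR adjusted p = 2.90e-08). GF27583, GF12430 and GF11702 followed. GF12430 averaged 498.2 ± 29.6 CPM in the cold and 46.1 ± 6.96 CPM in control, with a log2 fold change of 3.43 ± 0.21, and GF11702 averaged 514.7 ± 96.5 CPM in the cold and 58.6 ± 4.70 CPM in control, with 3.14 ± 0.24. Of the 19 that rose, 9 were over 2-fold higher. Of the 84 that fell, 69 were over 2-fold lower. Over all genes tested, 8.97% were called and over 2-fold higher and 8.55% called and over 2-fold lower.

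**Figure D3:**
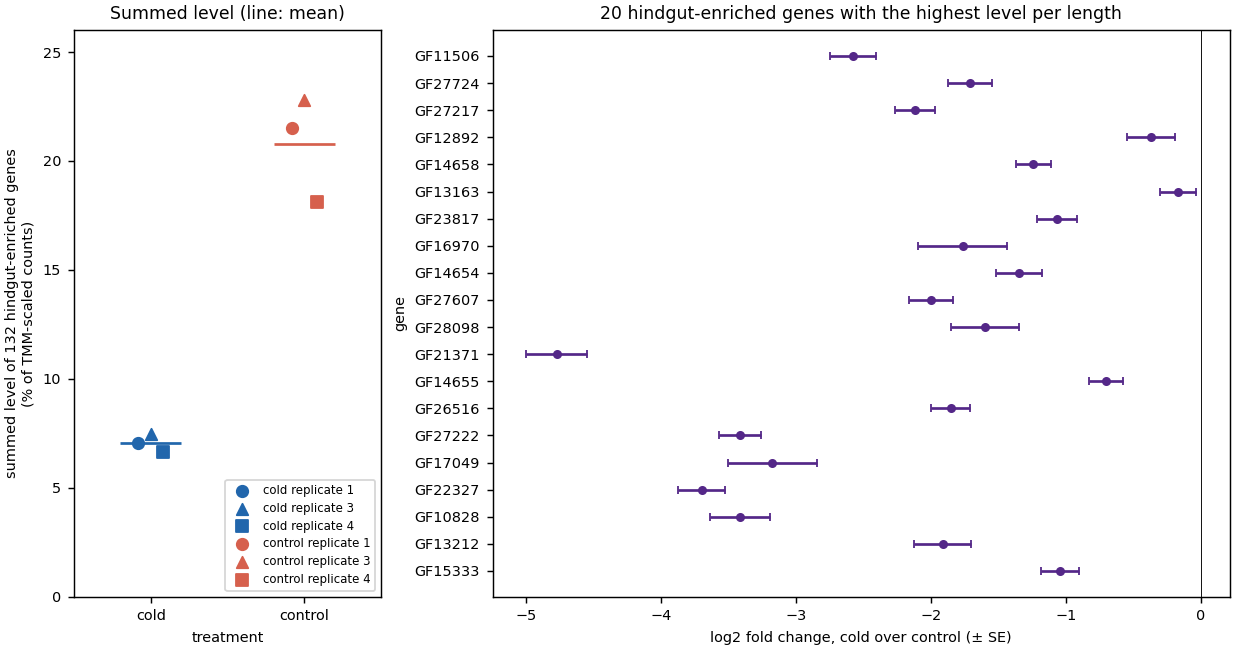
Left: summed level of the 132 hindgut-enriched genes in each FastBKK hindgut library, as percent of TMM-scaled counts, with the group mean as a line; cold libraries lie between 6.64% and 7.47% and control libraries between 18.1% and 22.8%. Right: log2 fold change ± SE, cold over control, of the 20 of these genes with the highest level per length in control libraries of the other lines. Of these, 18 were called lower.

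Genes at similar levels in hindgut, tubule and body moved in both directions and by little. Of 2704 such genes, defined as at least 10 CPM in each tissue and within 2-fold of each other in the same control libraries, 756 (28%) were higher and 683 (25.3%) lower in the cold, against 23.6% and 23.1% of all genes. Without control replicate 3, 731 were higher and 734 lower, so the lean to higher calls was not kept. At over 2-fold, 98 of the 2704 were called higher and 48 lower, where 8.97% and 8.55% of all genes were. Without control replicate 3 these counts were 105 and 50, so at this threshold higher genes stayed more numerous. Over all genes the counts without it were 1148 higher and 811 lower. In cold libraries the even genes summed to 36.9%, 36% and 36.2% of TMM-scaled counts, and in control libraries to 35.9%, 35.4% and 35.6%. TMM scaling itself sets the bulk of genes level between libraries, so these sums cannot show that the class held its share of raw counts. The tubule-enriched class, 214 genes chosen in the same way, summed to 0.443% to 0.488% of TMM-scaled counts in cold libraries. In control libraries it summed to 0.484% to 0.551%, so the groups overlapped. Of its genes, 32 were called higher (15%) and 45 lower (21%), against 23.6% and 23.1% of all genes. Without control replicate 3 the class had 27 higher and 41 lower. Among the most abundant genes that were not called, GF13105 (FBgn0090138, scaffold 13266) averaged 8163 ± 493 CPM in the cold and 8598 ± 172 CPM in control, a fitted log2 change of -0.07 ± 0.07 (edgeR adjusted p = 0.399). GF15143 (FBgn0092168, scaffold 13230) averaged 6278 ± 240.2 CPM in the cold and 7788 ± 504 CPM in control, a fitted log2 change of -0.31 ± 0.13 (edgeR adjusted p = 0.0621).

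One gene of the even class stood among the 10 lowest. GF27507 (FBgn0274730, scaffold 13280, 1926 bases) had 2.39, 1.48 and 2.18 CPM in the cold and 24.4, 23.4 and 23.8 CPM in control, a fitted log2 change of -3.56 ± 0.18 (edgeR adjusted p = 5.98e-09). Its fall was also called in FastBKK tubule, at 0.882 CPM in the cold and 20.04 CPM in control, and in FastBKK body, at 6.38 CPM in the cold and 15.99 CPM in control.

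Some transcripts were found only at the detection limit in control hindguts. Of the genes called higher, 77 had at most 3 counts in every control library, and 65 of these were still called without control replicate 3. Fitted without that library, 156 genes had at most 3 counts in both remaining control libraries and were called higher. A fold change against this floor of 3 counts per library is a lower bound. GF17186 (FBgn0094204, next in symbol to GF17187) had 437, 196 and 325 counts in cold libraries and 1 count in each control library, at least 84.0-fold higher. GF20481 had 257, 317 and 284 counts in the cold and 1, 1 and 0 in control, at least 74.9-fold higher, and GF17800 had 310, 190 and 221 counts in the cold and 1, 0 and 0 in control, at least 63.2-fold higher. GF25207 was at least 81.2-fold higher on average, but cold replicate 1 held 26 counts against 419 and 501 in the other two. These 4 genes were the highest of the set by this bound. The median bound over the 77 genes was 4.17-fold and the lowest 0.882, and 15 of them averaged over 1 CPM in the cold, so for many the data set only a small fold or none. Of the 77 genes, 52 were also called higher by cold in SlowBKK hindgut and 51 in KATH hindgut. Over all genes these shares were 26.3% and 22.6%, and over all genes called higher in FastBKK they were 80.4% and 76.6%. The 77 genes were thus shared less often than the FastBKK rises as a whole. In the other direction, 34 genes called lower had at most 3 counts in every cold library, but 12 of them were body-restricted and only 8 were still called without control replicate 3.

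Some strong responders carried consecutive annotation symbols on 1 scaffold. Of 528 genes over 4-fold and called with and without control replicate 3, 63 lay in 28 runs of consecutive symbols that moved the same way. Thus 11.9% of these strong responders stood next in symbol order to another that moved the same way, against 2.73% of the other 10795 tested genes standing next to such a responder of their own sign. The longest with sizeable levels ran across GF10297, GF10298, GF10299 and GF10300 on scaffold 13337, with log2 fold changes of 6.54, 2.45, 5.63 and 4.95. GF10300 alone averaged 434 CPM in the cold and 14.0 CPM in control. The run GF14584 to GF14586 on scaffold 12916 had log2 fold changes of 3.28, 4.16 and 3.76, and GF14584 averaged 1126 CPM in the cold and 115.7 CPM in control. On scaffold 13340, GF17187 and GF17799 each had a neighbour in symbol order, GF17186 and GF17800, whose rise is given above as a lower bound. Whether reads were shared between similar neighbouring copies was not checked, and symbols show order in the annotation, not distance.

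The FastBKK response was largely shared with the hindguts of the other lines. Of the 2676 genes that rose in FastBKK, 2151 (80.4%) were also called higher in SlowBKK and 2049 (76.6%) in KATH, where 26.3% and 22.6% of all genes were higher. Of the 2616 that fell, 2031 (77.6%) were also lower in SlowBKK and 1947 (74.4%) in KATH, where 25.5% and 23% of all genes were lower. Seen from the other lists, the shared genes made up 72.3% of the rises and 70.4% of the falls in SlowBKK, and 79.9% and 74.7% in KATH. Calls in the opposite direction were few: 8 and 7 genes in SlowBKK and 11 and 10 in KATH, for the rises and falls of FastBKK. Without FastBKK control replicate 3, 84.3% of the rises and 87.4% of the falls were called the same way in SlowBKK, where 28% and 26.7% of all genes were, and 77.6% and 78.8% in KATH, where 24.5% and 24.4% were. Each line had its own control libraries. All 10 of the highest named genes in FastBKK were called higher in both other lines. All 10 of the lowest were called lower in SlowBKK, and 9 were in KATH, where GF23660 had a log2 change of -0.65 (edgeR adjusted p = 0.414), against -3.65 ± 0.67 in FastBKK.

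**Figure D4:**
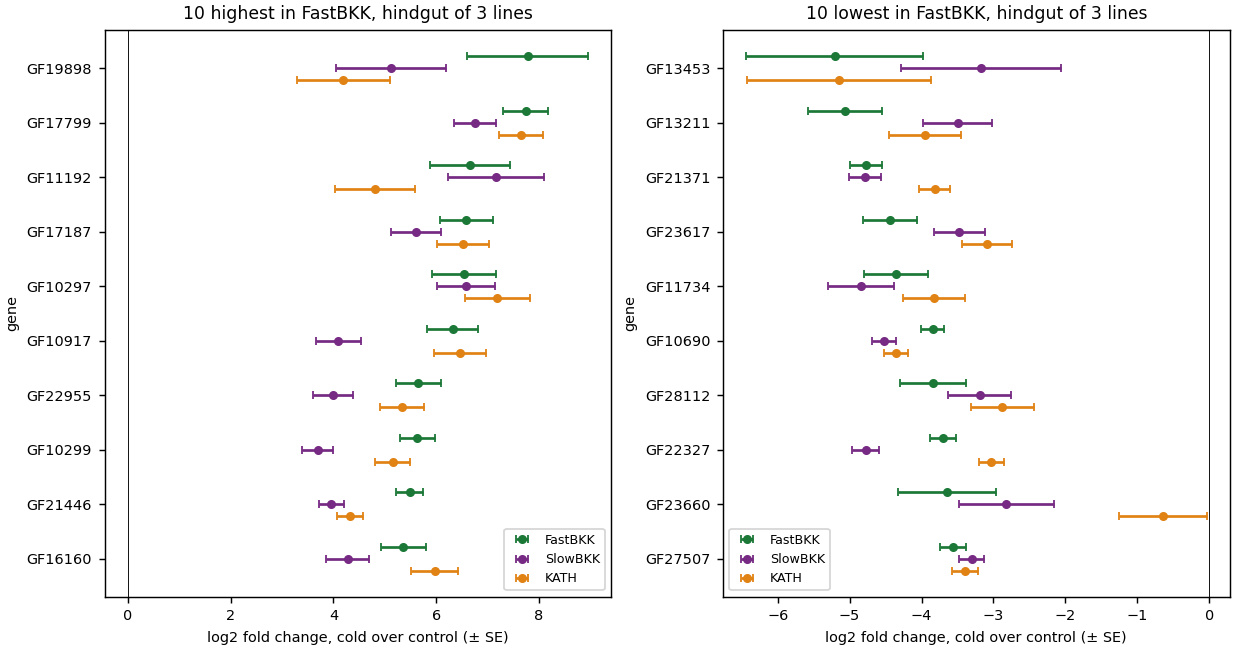
Log2 fold change ± SE, cold over control, in hindgut of FastBKK (green), SlowBKK (purple) and KATH (orange), for the 10 named genes highest (left) and the 10 lowest (right) in FastBKK. All values lie on the same side of 0 in the 3 lines. The genes were chosen for extreme values in FastBKK, which favours larger values there, so sizes are not compared between lines here.

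Where the lines differed, the test of the difference found few genes. The cold response of FastBKK differed from that of SlowBKK in 65 of 11323 genes (0.574%; edgeR interaction contrast), 46 (0.406%) with a more positive and 19 (0.168%) with a more negative change in FastBKK. It differed from that of KATH in 72 genes (0.636%), 46 (0.406%) more positive and 26 (0.23%) more negative. Without control replicate 3 the counts were 27 (0.236%) and 51 (0.446%), and 22 and 45 genes were called both ways. Leaving out any other of the libraries compared gave 6 to 96 genes against SlowBKK and 32 to 118 against KATH, the lowest without FastBKK cold replicate 4 or SlowBKK control replicate 2, and without KATH cold replicate 1. DESeq2 in place of edgeR called 434 genes against SlowBKK and 303 against KATH. With the replicate number added to the edgeR fit as a block, 0 genes were called against SlowBKK and 1 against KATH. Both comparisons use the same FastBKK libraries, so their values are given side by side only. Among the 22 genes that differed from SlowBKK both ways, 12 moved in the same direction in both lines, 3 were called in FastBKK only, 6 in SlowBKK only, and 1 was called in opposite directions. Among the 45 that differed from KATH both ways, the counts were 14, 13, 10 and 8.

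Against SlowBKK, the 3 genes with the smallest p showed 3 different forms of difference. GF12740 (FBgn0089774, scaffold 13266, 1659 bases), a hindgut-enriched gene, had 326, 303.8 and 561.9 CPM in cold FastBKK and 342, 316.9 and 316.5 CPM in control FastBKK. In SlowBKK it had 30.5, 40.8 and 43.5 CPM in the cold and 215, 247.3 and 204.3 CPM in control. The level in FastBKK overlapped between treatments, while in SlowBKK it was several-fold lower in the cold, and the difference in log2 fold change was 2.83 ± 0.29 (edgeR adjusted p = 5.99e-04). GF15653 (FBgn0092677, scaffold 12916, 4326 bases) moved in opposite directions. It had 2.28, 2.50 and 1.65 CPM in cold and 0.578, 0.509 and 0.654 CPM in control FastBKK, against 10.4, 15.7 and 18.3 CPM in cold and 37.0, 34.3 and 32.2 CPM in control SlowBKK. Its levels differed between the lines in both treatments, and the difference in log2 fold change was 3.10 ± 0.33 (edgeR adjusted p = 5.99e-04). GF16339 (FBgn0093360, scaffold 13340, 942 bases) had 32.1, 30.0 and 34.4 CPM in cold and 69.1, 61.6 and 58.0 CPM in control FastBKK, against 32.9, 33.0 and 33.5 CPM in cold and 30.2, 31.2 and 33.1 CPM in control SlowBKK. Cold FastBKK thus lay at the level that SlowBKK held in both treatments, and the difference was -1.04 ± 0.11 (edgeR adjusted p = 5.99e-04).

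Against KATH, the 3 genes with the smallest p were GF15707, GF13005 and GF18086. GF15707 (FBgn0092731, scaffold 12916, 1088 bases) had 44.0, 47.3 and 46.0 CPM in cold and 53.3, 61.5 and 52.8 CPM in control FastBKK, against 58.7, 56.6 and 51.7 CPM in cold and 275.7, 240.2 and 292.6 CPM in control KATH. Control KATH was the one group apart, and the difference in log2 fold change was 1.99 ± 0.12 (edgeR adjusted p = 1.27e-06). GF13005 (FBgn0090038, scaffold 13266, 1769 bases) had 16.21, 19.39 and 19.97 CPM in cold and 6.73, 5.74 and 5.61 CPM in control FastBKK, against 19.2, 18 and 19.6 CPM in cold and 19.2, 15.1 and 17.7 CPM in control KATH. Of these groups control FastBKK was the low one, and the difference was 1.49 ± 0.19 (edgeR adjusted p = 0.00476). GF18086 (FBgn0095104, scaffold 13340, 2109 bases) had 11.4, 25.3 and 15.3 CPM in cold and 24.2, 23.6 and 31.5 CPM in control FastBKK, against 5.20, 4.95 and 5.57 CPM in cold and 61.3, 65.8 and 111 CPM in control KATH. Its FastBKK groups overlapped, its KATH groups were far apart, and the difference was 3.31 ± 0.42 (edgeR adjusted p = 0.00476). GF16339 was also called against KATH, at -0.83 ± 0.11 (edgeR adjusted p = 0.00688), and GF18086 also against SlowBKK, at 2.54 ± 0.42 (edgeR adjusted p = 0.0248), and all 6 genes were called without control replicate 3.

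**Figure D5:**
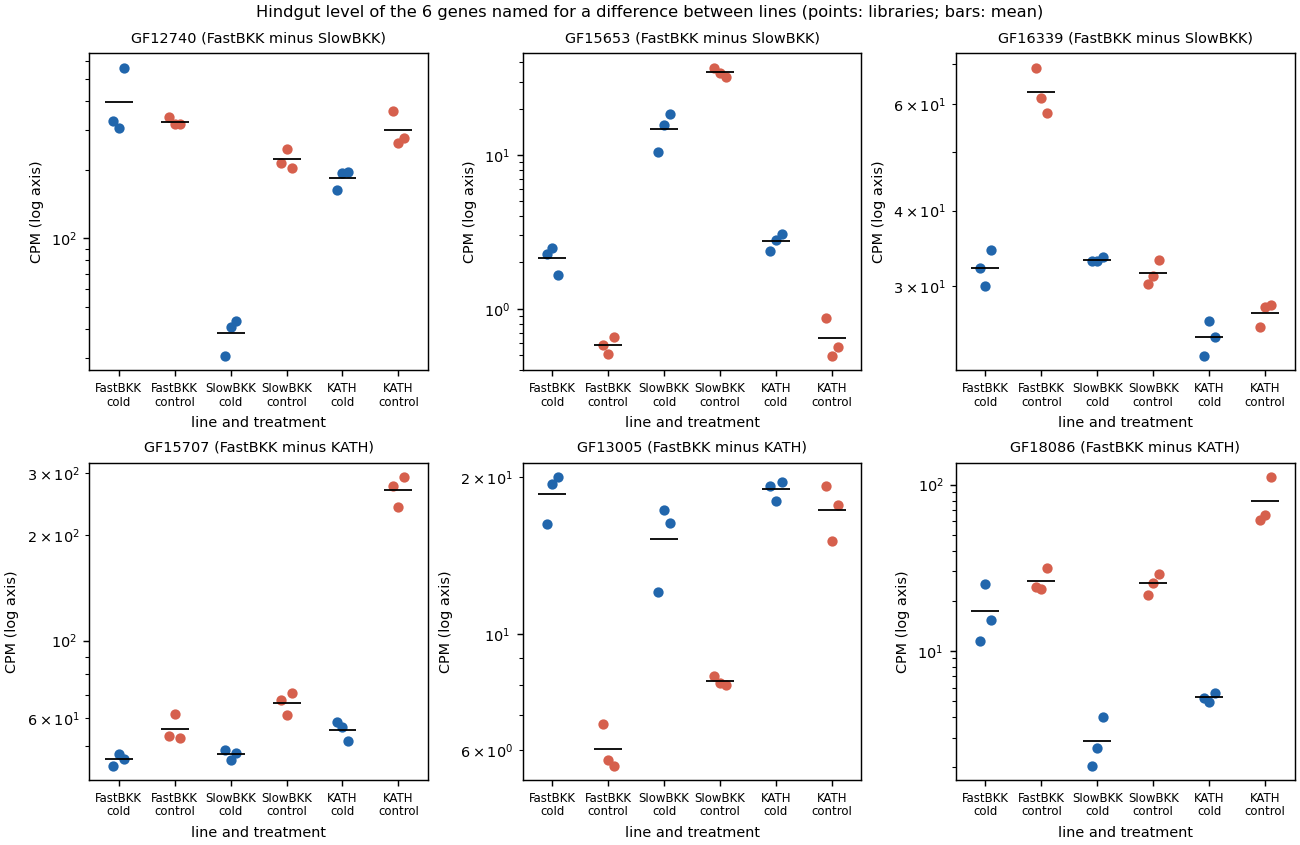
Level of the 6 genes named for a difference between lines, in TMM-scaled CPM on log axes, in cold (blue) and control (red) hindgut libraries of FastBKK, SlowBKK and KATH, with points for libraries and a bar for the mean of 3. GF12740 in cold SlowBKK and GF15707 in control KATH are each set apart from the other groups of the same gene, while GF13005 is low in control FastBKK and, at 7.98 to 8.30 CPM, in control SlowBKK.

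The response of FastBKK hindgut also recurred in part in other tissues of the line. Of the genes that rose in hindgut and were tested in Malpighian tubule, 1097 of 2376 (46.2%) were also called higher there and 140 lower, where 20.2% of all genes tested in tubule were higher. Of those that fell, 1017 of 2339 (43.5%) were also lower and 180 higher, where 21.3% were lower. One tubule library held hindgut transcript. In cold tubule replicate 1, the 132 hindgut-enriched genes stood at a median of 2.64% of their level in cold hindgut, against 0.0597% and 0.0917% in cold tubule replicates 3 and 4 and 0.0217% to 0.142% of the control hindgut level in the control tubule libraries. GF11506 had 510 CPM in that library and 0.152 and 0.249 CPM in the other cold tubule libraries. Without it, 1040 of 2397 rises (43.4%) and 948 of 2405 falls (39.4%) of the hindgut were called the same way in tubule, where 19.3% and 18.4% of all genes were. Among even genes alone, with all tubule libraries, 359 of 756 rises (47.5%) and 400 of 683 falls (58.6%) were, where 21.3% and 27.8% of even genes were. In the body, which the design text describes as whole and so may hold hindgut itself, 1690 of 2661 (63.5%) of the rises and 1385 of 2609 (53.1%) of the falls were called in the same direction, where 25.2% of all genes were higher and 25.2% lower. Without hindgut control replicate 3 the shares were 47.4% and 44.1% in tubule and 58.1% and 50.6% in body. Of the 10 highest genes, 4 were tested there and 1 was called higher, GF11192, at 1.80 CPM in the cold and 0.0105 CPM in control, whereas 9 of 10 were called higher in body. Of the 10 lowest, 7 were tested in tubule and 2 were called lower (GF13453 and GF27507), against 9 of 10 in body. Without cold tubule replicate 1, GF13453 was not called in tubule (edgeR adjusted p = 0.0959) and GF22327 was (edgeR adjusted p = 0.0292). GF11506, the gene with the largest loss in hindgut, averaged 509.5 CPM in cold and 3232 CPM in control body, a log2 fold change of -2.67, close to its value in hindgut.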

How the data were processed

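Per the file headers, the authors deposited raw counts per gene and library for 14365 genes, with FlyBase identifier, symbol, scaffold and gene length. Libraries were poly-A enriched, per the labels' protocols, and hindgut RNA was extracted with an RNeasy kit. The submitters' processing notes name FastQC 0.11.9; the aligner, counter, genome build and use of strand are not given in the sources used here, so reads shared between similar or overlapping genes could have been split. The deposited gene length, a value of another kind, was used for RPKM only.

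All 18 hindgut libraries were fitted together with edgeR 4.0.16 in R 4.3.3 (limma 3.58.1), with 1 coefficient per line and treatment, filterByExpr, TMM scaling, glmQLFit and two-sided glmQLFTest, and Benjamini-Hochberg adjustment over all 11323 tested genes. Genes were called at an adjusted p under 0.05. The fit had 12 residual degrees of freedom. Differences between lines were tested as interaction contrasts in the same fit, and tubule and body were fitted separately in the same way. CPM is TMM-scaled, a fold change is the fitted value and its SE was derived from the F statistic. A count of 3 was taken as the floor of a library, and floors cover counting error only.

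Genes were named by rule: with at least 10 CPM over the 6 libraries, called with and without control replicate 3 and not overlapping, the 10 highest and 10 lowest fold changes and the 4 largest rises and falls in mean CPM, then for each difference between lines the 3 called genes with the smallest p, and the 3 most abundant genes not called. The hindgut-enriched, tubule-enriched, even and body-restricted classes, the runs of symbols and the genes at the floor were examined in addition, as were the further hindgut-enriched genes named with them. Planned lists by gene product could not be used, since no identifier matched the reference table. The rule, members and classes were chosen with earlier results of these data known.

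No 2 libraries of a group agreed within sampling noise, with a chi-square per degree of freedom of 49.3 to 193 over genes with at least 20 counts. Each library was counted as 1 replicate, though such values cannot show whether libraries came from separate cultures. Replicate numbers were not used to pair libraries. The code was tested on simulated counts. Alternatives were DESeq2 1.42.0 and its size factors, no filter, fewer libraries in the fit, a replicate block, robust dispersion, a 2-fold threshold, other class definitions, and each library left out in turn. The other class definitions, and the overlaps without a library or over even genes alone, were chosen after seeing the data.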

Additional observations from a re-analysis of the deposited data

Results flagged for a closer look

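The 6 genes named for a difference between lines were looked at again because the test of the difference itself was passed, with groups of 3 libraries each. Against SlowBKK, the difference in log2 fold change (FastBKK minus SlowBKK) was 2.83 for GF12740, 3.10 for GF15653 and -1.04 for GF16339. Against KATH, the difference (FastBKK minus KATH) was 1.99 for GF15707, 1.49 for GF13005 and 3.31 for GF18086. GF12740 fell by 2.54 on the log2 scale in SlowBKK (edgeR adjusted p = 2.93e-07) and had a log2 change of 0.29 in FastBKK (edgeR adjusted p = 0.263), where cold replicate 4, at 561.9 CPM, lay above the other 2 cold libraries. GF18086 fell by 3.92 on the log2 scale in KATH and by 3.15 in SlowBKK, and had a log2 change of -0.61 in FastBKK (edgeR adjusted p = 0.0977). GF15707 is also the gene whose own FastBKK fall, -0.29 (edgeR adjusted p = 0.0142), was no longer called without control replicate 3 (edgeR adjusted p = 0.0656), while its difference from KATH was 2.06 without that library. No explanation of these differences was tested.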

How the results depend on the processing

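Over the FastBKK response, the count of called genes stayed within 1.5 times of 5292 under every alternative except an added 2-fold threshold, which left 1984 genes (1016 higher, 968 lower) and 9 hindgut-enriched genes higher. Leaving out 1 library gave 4413 to 5255 calls, 2249 to 2681 of them higher and 2143 to 2772 lower, with 81 to 87 hindgut-enriched genes lower and 14 to 19 higher. Scaling and filter moved the median of all genes by under 0.1. The class from cold libraries had 37 genes higher. A 4-fold class, also chosen after seeing the data, had 155 of 274 lower and 41 higher.

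The count of genes over 4-fold lower ran between 205 and 772 with 1 library left out (205 without control replicate 3, 749 without control replicate 1, 772 without control replicate 4), 687 without the filter, 253 without body-restricted genes, 197 with FastBKK libraries alone and 193 with the replicate block. Body-restricted genes called lower ran between 5 and 427 with 1 library left out and were 67 with DESeq2, 306 without the filter, 6 with FastBKK libraries alone and 7 with the block. The 77 genes at the floor in control became 41 with FastBKK libraries alone, 50 with the block and 156 without control replicate 3.

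The differences between lines depended more on the fit. Against SlowBKK, 65 genes became 434 with DESeq2, 29 with only the libraries of both lines, and 6 to 96 with 1 library left out; it was 6 without FastBKK cold replicate 4 or SlowBKK control replicate 2, 7 and 11 without SlowBKK control replicate 1 or cold replicate 4, and 18, 21, 23, 27 and 32 without FastBKK control 4, SlowBKK cold 1, FastBKK cold 3, FastBKK control 3 or FastBKK control 1. Against KATH, 72 genes became 303 with DESeq2 and 32 to 118 with 1 library left out, with 32, 36, 43 and 44 without KATH cold 1, KATH control 5, KATH cold 4 or FastBKK cold 4 and 118 without KATH control 1. With the replicate number as a block, 4123 genes were called for the response, 0 against SlowBKK (1183 at an unadjusted p under 0.05, edgeR) and 1 against KATH. Same-numbered cold and control FastBKK libraries deviated from their group means with correlations of 0.197, -0.198 and -0.0661 across genes. In SlowBKK these correlations were -0.00704 and 0.297 for replicates 1 and 2. In KATH they were -0.143 and -0.0769 for replicates 1 and 4. With groups of 3 libraries, such values cannot show whether the numbers mark shared batches. The cause of the shifts in the counts of called genes was not tested.

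For named genes, 543 of 554 alternative values were counted as unchanged, and no value called in the main fit changed direction. For the 3 abundant genes that were not called, a change of sign was not counted as a change. GF16196 missed the 2-fold threshold, and 5 line differences (GF12740, GF15653, GF16339, GF13005 and GF18086) were not called with the block. GF12892 and GF15143 gained a call under some alternatives. Alternatives planned for lists by gene product were not run.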

Other observations

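The direction of change varied with expression level. Tested genes were split into 4 bins of equal size by their mean hindgut level over the cold and control libraries of SlowBKK and KATH. The highest bin, of 2831 genes, held 665 higher (23.5%) and 1015 lower (35.9%) in cold FastBKK, against 23.6% and 23.1% of all genes. Its median log2 fold change was -0.11, and without control replicate 3 it held 617 higher and 1109 lower. In the second lowest bin, 809 were higher (28.6%) and 486 lower (17.2%), with a median of 0.12. Leaving out control replicate 3 gave 784 higher and 457 lower there. In the lowest bin, the count depended on control replicate 3. With that library 407 were higher (14.4%) and 428 lower (15.1%), and without it 516 were higher and 208 lower. Among 4 such bins by gene length, the one with the shortest genes had 642 higher (22.7%) and 648 lower (22.9%). The one with the longest genes had 660 higher (23.4%) and 577 lower (20.4%), so both lay near the shares of all genes. Without control replicate 3 these counts leaned the other way, with 701 higher and 523 lower among the shortest genes and 584 higher and 743 lower among the longest.

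Among genes that differed from KATH with and without control replicate 3, 8 were called in opposite directions in the lines. Of these, GF11735, chosen after its values were seen, averaged 86.6 CPM in cold and 246.1 CPM in control FastBKK, against 71.4 CPM in cold and 27.3 CPM in control KATH. GF16778, chosen likewise, averaged 106.1 CPM in cold and 171.1 CPM in control FastBKK, against 198.9 CPM in cold and 159.4 CPM in control KATH.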
